A study of Mus musculus with 16 samples.

Results

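The 10 genes described here encode C-type lectin receptors of myeloid cells, and were taken by name from the 47643 gene identifiers counted in each of 16 libraries: Clec7a, Clec4n, Clec4d, Clec4e, Clec12a, Clec4a1, Clec4a2, Clec4a3, Clec5a and Clec10a. All 10 had counts in the series, with totals over the 16 libraries between 561 for Clec10a and 39369 for Clec7a. The libraries came from wild-type C57BL/6 mice and were made by QuantSeq, which reads the 3' ends of messenger RNA, so that 1 transcript gives about 1 tag whatever its length. Levels are given in CPM, counts scaled to a common library total.

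Mice 1, 2 and 4 each gave 4 kinds of cells. The mexAM libraries hold alveolar macrophages grown in culture outside the animal, the BALF libraries cells washed from the airspaces, the PLF libraries cells washed from the peritoneal cavity, and the BMDM libraries macrophages differentiated from bone marrow. A further 4 libraries held cultured alveolar macrophages from 2 pools of lavage cells. Pool 1 was sampled at a later (13) and an earlier (8) passage, and so was pool 2 (10 and 5). No library had been treated or genetically altered, per the labels. Age and sex of the animals, culture media and the mexAM passage were not given in the sources used here. BALF and PLF are lavage cells rather than sorted macrophages, and each pool mixes animals.

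C-type lectin receptors bind sugars and lipids on fungi, mycobacteria and dying cells. Dectin-1, the product of Clec7a, carries its own activating motif, while Dectin-2 (Clec4n), MCL (Clec4d) and Mincle (Clec4e) signal through the adaptor FcRγ, and both routes meet at the kinase Syk and the CARD9-BCL10-MALT1 complex that switches on cytokine genes. Other members, such as MICL (Clec12a) and DCIR (Clec4a2), carry inhibitory motifs that recruit phosphatases.

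The genes lie close together in the mouse genome. In GRCm38 with GENCODE M21, 9 of the 10 map to chromosome 6 and Clec10a maps to chromosome 11 (70156197 to 70170834, plus strand). Of those on chromosome 6, 6 lie within 368 kb (122921848 to 123289870): Clec4a1, Clec4a3, Clec4a2, Clec4n, Clec4d and Clec4e, in that order. Clec12a (129342691 to 129365303, plus strand) and Clec7a (129461591 to 129472779, minus strand) lie 130 kb end to end. Clec5a stands alone at 40574894 to 40585821 on the minus strand. Clec4d (123262111 to 123275265, plus strand) and Clec4e (123281789 to 123289870, minus strand) converge on each other with no overlap. No member overlaps a gene on the opposite strand. Clec4a2 overlaps a processed pseudogene on its own strand, and GENCODE lists Clec7a as a polymorphic pseudogene.

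RefSeq sequence before the start of the gene (GRCm38.p6, 250 bases each) was at hand for 8 of the 10 members. It is shown for 5: the most abundant member (Clec7a), the neighbours with the highest PLF levels (Clec4d and Clec4e), and neighbours with a high BMDM level that differed in BALF (Clec4a1 and Clec4a3). The windows are chr6:129472780-129473029 (minus strand) for Clec7a, chr6:123261857-123262106 (plus) for Clec4d, chr6:123289872-123290121 (minus) for Clec4e, chr6:122921598-122921847 (plus) for Clec4a1 and chr6:122952265-122952514 (plus) for Clec4a3. Capitals mark GAGGAA, the core bound by the myeloid factor PU.1, or its reverse complement TTCCTC, and TTGCNNAA, a C/EBP sequence, or its reverse complement TTNNGCAA. All are written 5' to 3' on the strand of the gene.
Clec7a: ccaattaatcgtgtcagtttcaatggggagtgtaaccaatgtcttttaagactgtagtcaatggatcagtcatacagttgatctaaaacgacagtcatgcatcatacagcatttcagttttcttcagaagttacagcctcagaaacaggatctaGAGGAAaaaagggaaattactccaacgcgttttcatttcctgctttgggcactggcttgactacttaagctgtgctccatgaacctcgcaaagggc
Clec4d: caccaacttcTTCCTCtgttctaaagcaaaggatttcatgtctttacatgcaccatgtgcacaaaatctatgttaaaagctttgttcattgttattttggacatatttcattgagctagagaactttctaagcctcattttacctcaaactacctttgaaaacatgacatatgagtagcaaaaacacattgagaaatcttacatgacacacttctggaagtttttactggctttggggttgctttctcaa
Clec4e: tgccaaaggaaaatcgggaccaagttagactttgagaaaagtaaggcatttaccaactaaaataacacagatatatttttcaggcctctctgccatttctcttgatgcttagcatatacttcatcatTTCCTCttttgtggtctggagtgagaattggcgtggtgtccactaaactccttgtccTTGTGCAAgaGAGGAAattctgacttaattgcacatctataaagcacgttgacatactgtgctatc
Clec4a1: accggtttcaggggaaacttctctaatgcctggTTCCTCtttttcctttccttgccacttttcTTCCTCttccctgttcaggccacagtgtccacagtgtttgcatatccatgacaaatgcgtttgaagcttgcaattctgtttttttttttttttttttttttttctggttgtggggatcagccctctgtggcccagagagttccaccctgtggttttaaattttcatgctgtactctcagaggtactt
Clec4a3: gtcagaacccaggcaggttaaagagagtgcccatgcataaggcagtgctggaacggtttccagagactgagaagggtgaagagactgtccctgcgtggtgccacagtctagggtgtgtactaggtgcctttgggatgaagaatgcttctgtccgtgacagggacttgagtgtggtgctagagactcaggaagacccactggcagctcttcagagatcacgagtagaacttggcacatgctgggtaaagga

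Clec7a and Clec4d held 1 PU.1 core each, Clec4e and Clec4a1 held 2 each, and Clec4a3 held none. Clec4e also held 1 C/EBP sequence, which the other printed windows lacked. Among 27025 RefSeq windows of the same length, 23.1% held the PU.1 core, 9.55% the C/EBP sequence and 6.87% the AP-1 sequence TGANTCA, which none of the printed windows held. The marked cores and sequences do not overlap. A match describes the letters only and is not evidence of binding.

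Cultured and lavaged alveolar macrophages both carried mostly Clec7a among these 10 transcripts. The members summed to between 1088 and 1583 CPM in mexAM, 6504 and 8859 CPM in BALF, 3756 and 4726 CPM in PLF, and 2273 and 2592 CPM in BMDM. Clec7a made up 75.2% ± 6.46 of that sum in mexAM, 62.5% ± 6.22 in BALF, 29.0% ± 13.5 in PLF and 13.8% ± 2.08 in BMDM (SD, n = 3 each). The next gene in mexAM and BALF was Clec4n, with 15.1% ± 6.70 and 27.2% ± 2.77. In PLF Clec4e held 34.9% ± 18.9 and Clec4d 28.6% ± 6.62. In BMDM the leading member was Clec4d (21.5% ± 1.02), followed by Clec12a (14.1% ± 2.18), and 8 of the 10 members each held over 3% of the sum.

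**Figure D1:**
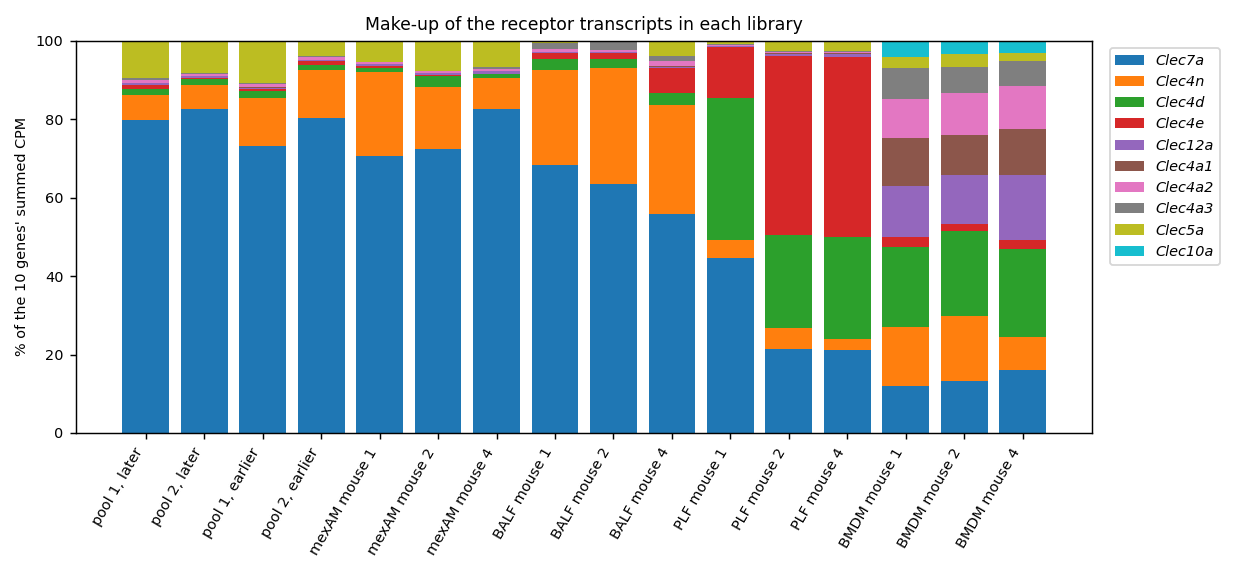
Share of each receptor gene in the summed CPM of the 10 genes, in percent, 1 bar per library. Clec7a (blue) fills most of each bar of cultured and lavaged alveolar cells, PLF bars are dominated by Clec7a, Clec4d and Clec4e, and BMDM bars are spread over all 10 genes.

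In bulk RNA of this kind, fewer cells of a type and less RNA per cell cannot be told apart. The alveolar and peritoneal cells carried markers of their labelled types, while BMDM had no marker list of its own. A list of 8 alveolar macrophage markers summed to between 6520 and 9585 CPM in mexAM, 10230.2 and 14907 CPM in BALF, 291 and 311 CPM in PLF, and 265 and 449.6 CPM in BMDM. Of these 8, 4 rose and 2 fell in mexAM against BALF, beside 15.2% of all genes higher and 14.8% lower. On average Itgax had 56.2 CPM in mexAM against 538 in BALF, Chil3 2609 against 9467 and Fabp1 2181 against 289. Gata6, the defining factor of peritoneal macrophages, had 0 counts in every other group and was read in PLF. B cell markers (6 genes) summed to at most 11.3 CPM in the cultured and lavaged alveolar cells, where Cd79a had 0 counts, and to 1851 to 2230.3 CPM in PLF. Mast cell markers (4 genes) summed to at most 4.12 CPM in all other libraries and to 1754 to 1884 CPM in PLF. Monocyte markers (4 genes) summed to at most 7.63 CPM in the alveolar libraries, to 529.7 to 631 CPM in PLF and to 504 to 644 CPM in BMDM. Neutrophil markers (6 genes) summed to at most 794 CPM in every other library and to 1697 to 4680.1 CPM in BMDM. The defining gene Ly6g had 0 counts in mexAM, but was low in BMDM too, at 3.38 CPM on average, and was not tested. Of the 5 tested, 1 rose and 4 fell in mexAM against BMDM, beside 21.5% of all genes higher and 23% lower. Cxcr2 went against the sum, with 246 CPM in mexAM and 17.2 CPM in BMDM, while S100a8 had 280 and 1399 CPM. Dendritic cell markers (6 genes) reached at most 14.7 CPM in all other libraries and 40.5 to 94.9 CPM in PLF, and T and NK cell markers (5 genes) at most 1.77 CPM in all other libraries and 63.5 to 75.1 CPM in PLF. Lung epithelium markers (4 genes) summed to 42.3 to 63.8 CPM in BALF and to at most 16.0 CPM in all other libraries. The part of these other cells in the receptor levels was not tested.

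Dectin-1 was the receptor read most strongly in the airspaces. Clec7a (ENSMUSG00000079293) stood (for mouse 1, 2 and 4 in turn, here and for the other genes) at 1104, 1145 and 899 CPM in mexAM, at 5945, 5614 and 3635 CPM in BALF, at 1676, 970.4 and 994 CPM in PLF, and at 313, 308 and 366 CPM in BMDM. All 3 BALF libraries lay above every other library, all 3 BMDM libraries lay below every other library, and mexAM and PLF overlapped. The log2 fold change of mexAM was -2.30 ± 0.26 against BALF (4.91-fold lower, edgeR adjusted p = 5.05e-06) and 1.68 ± 0.26 against BMDM (adjusted p = 3.75e-05). Against PLF it was -0.23 ± 0.25 with a 95% interval of -0.80 to 0.35, which did not pass the test (adjusted p = 0.455). The highest to lowest order was BALF, PLF, mexAM and BMDM, with PLF and mexAM not separated.

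Clec4n (Dectin-2, ENSMUSG00000023349, chromosome 6, 123229843 to 123247021, plus strand) binds fungal mannans. It was at 333, 253 and 87.2 CPM in mexAM, at 2105, 2625 and 1802 CPM in BALF, at 174, 239 and 134 CPM in PLF, and at 389, 381 and 187 CPM in BMDM. The BALF libraries stood clear of the rest, and the other 3 groups overlapped one another. It fell 9.85-fold in mexAM relative to BALF (log2 fold change -3.30 ± 0.44, adjusted p = 8.33e-05). BALF exceeded PLF by 3.58 ± 0.45 and BMDM by 2.80 ± 0.43 on the log2 scale. The mexAM changes against BMDM (-0.50 ± 0.41) and PLF (0.28 ± 0.42) did not pass the test. PLF against BMDM gave -0.78 ± 0.42 (adjusted p = 0.160), and -0.74 (adjusted p = 0.0468) once mouse entered the fit as a replicate block. The level in mexAM of mouse 4, 87.2 CPM, was the lowest of the 12 mouse libraries. The ratio of Clec7a to Clec4n ran from 3.31 to 10.3 in mexAM, 2.02 to 2.82 in BALF, 4.06 to 9.61 in PLF and 0.804 to 1.96 in BMDM.

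MCL and Mincle form a receptor pair for mycobacterial glycolipid, and their genes lie side by side. Clec4d (MCL, ENSMUSG00000030144) was at 17.8, 41.5 and 8.88 CPM in mexAM, 247, 215 and 200.2 CPM in BALF, 1356, 1068 and 1231 CPM in PLF, and 529.6, 503 and 510.3 CPM in BMDM. No pair of these 4 groups overlapped, in the order PLF, BMDM, BALF and mexAM, and every neighbouring step passed the test. The log2 fold change of mexAM was -3.31 ± 0.37 against BALF, -5.77 ± 0.40 against PLF and -4.50 ± 0.38 against BMDM (adjusted p = 8.61e-06, 7.91e-09 and 1.06e-07). Leaving out mexAM of mouse 2, the highest mexAM library, moved these to -4.11, -6.56 and -5.29.

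Clec4e (Mincle, ENSMUSG00000030142), whose transcript is induced by inflammatory stimuli in macrophages, had 6.32, 6.42 and 1.21 CPM in mexAM, 137, 120.3 and 419.9 CPM in BALF, 491, 2064 and 2176 CPM in PLF, and 62.9, 40.5 and 53.6 CPM in BMDM. PLF stood highest and mexAM lowest, with no overlap between any pair of groups, but mouse 4 held most of the spread in BALF and mouse 1 in PLF. The log2 fold change of mexAM was -5.67 ± 0.79 against BALF, -8.47 ± 0.84 against PLF and -3.54 ± 0.79 against BMDM (adjusted p = 0.000212, 3.19e-06 and 0.00292). Without BALF of mouse 4 the first became -4.86. Its log2 fold change in BALF against PLF was -2.80 ± 0.60, and -3.62 without that library. BALF exceeded BMDM by 2.13 ± 0.61 (adjusted p = 0.0160), and without BALF of mouse 4 by 1.32 (adjusted p = 0.0958). That call was also lost without BMDM of mouse 2 or of mouse 4, at adjusted p = 0.0615 and 0.0542, and with no filter on low counts, at 0.0865.

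Clec4d and Clec4e did not keep one ratio. Clec4d exceeded Clec4e in all 3 mexAM libraries (2.82 to 7.33 times) and all 3 BMDM libraries (8.42 to 12.4 times). In BALF the ratio was 1.81, 1.79 and 0.477 in mice 1, 2 and 4, and in PLF it was 2.76, 0.518 and 0.566. The inflammatory cytokine gene Il1b and Gm42418, whose reads can stem from ribosomal RNA, were chosen after their values were seen. In the same mouse order Il1b had 66.1, 32.6 and 120.3 CPM in mexAM, 20.8, 21.9 and 74.4 CPM in BALF, and 75.7, 549.5 and 414 CPM in PLF. It was thus high beside a high Clec4e in BALF of mouse 4 and in PLF of mice 2 and 4, while mexAM of mouse 4 had the highest Il1b and the lowest Clec4e of its group. In the pools Il1b stood at 128 and 129 CPM at the later passage and at 33.5 and 57.9 CPM at the earlier one, with Clec4e at 10.8 and 3.81 CPM at the later and 9.58 and 29.0 CPM at the earlier passage. For Gm42418 the BALF libraries had 127649, 45970.4 and 155842 CPM, and the PLF libraries 134272, 36329 and 36666 CPM. BALF of mouse 4, where Clec4e was high, and PLF of mouse 1, where it was low, were thus the highest of their groups. BALF of mouse 1 was also high. The mexAM libraries had 50514, 55249 and 50498 CPM of Gm42418. The BMDM libraries had 54525, 114000 and 119939 CPM, beside Clec4e at 62.9, 40.5 and 53.6 CPM. The part of either gene's signal in the receptor levels was not tested.

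**Figure D2:**
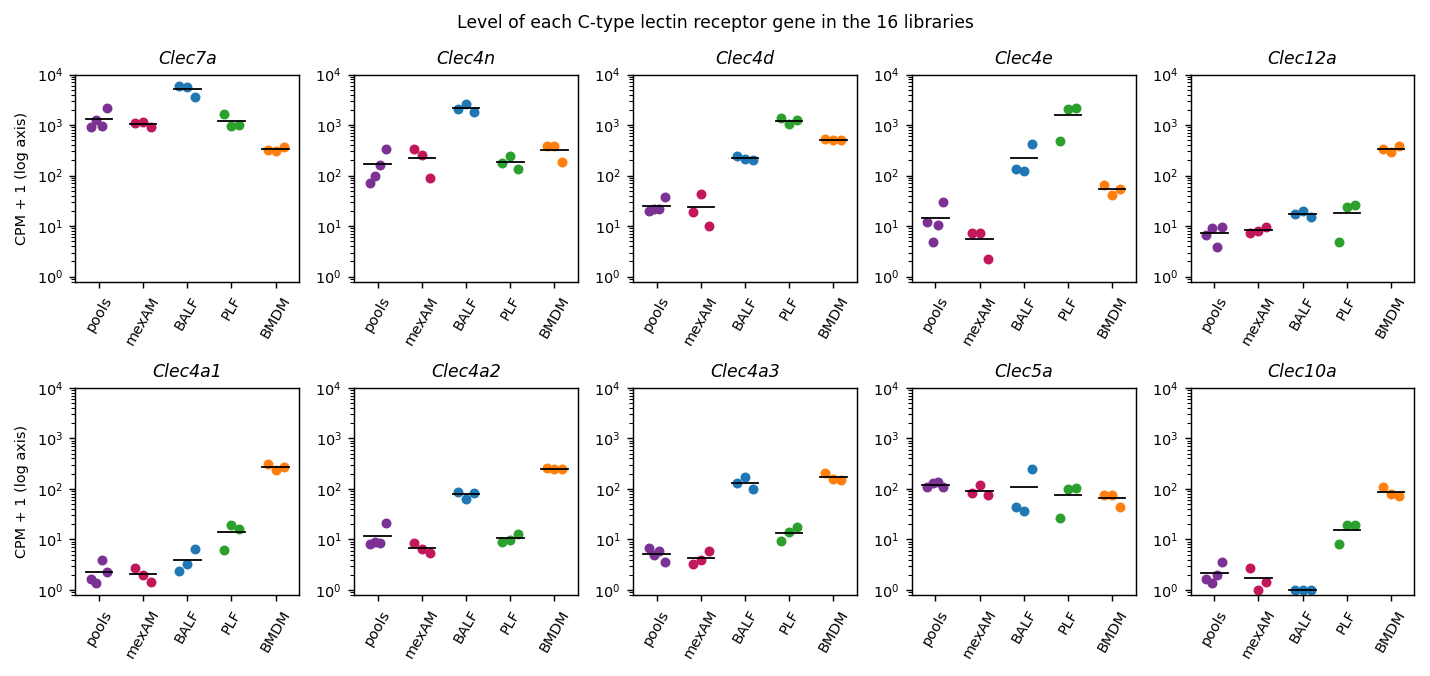
CPM plus 1 on a log axis for each receptor gene, 1 point per library and a black line at the group mean, for the 2 lavage pools at both passages (pools), mexAM, BALF, PLF and BMDM. The pools overlap mexAM for all 10 genes, and BMDM is the highest group for Clec12a, Clec4a1, Clec4a2, Clec4a3 and Clec10a.

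The inhibitory members were read mainly in BMDM. Clec12a (MICL, ENSMUSG00000053063), which senses uric acid crystals of dead cells, stood at 6.32, 6.91 and 8.47 CPM in mexAM, 16.7, 18.6 and 14.2 CPM in BALF, 3.92, 23.0 and 24.9 CPM in PLF, and 338, 295 and 378 CPM in BMDM. All BMDM libraries lay over 10 times above every other library, and PLF of mouse 1 was below all mexAM libraries. It fell by 5.51 ± 0.40 in mexAM against BMDM on the log2 scale (adjusted p = 1.59e-08). Against PLF mexAM was -1.25 ± 0.44 (adjusted p = 0.0229), a call lost without any 1 of mexAM mice 1 or 2 or PLF mice 2 or 4 and with only these groups in the fit, at adjusted p of 0.0575 to 0.152. Against BALF mexAM was -1.18 ± 0.46 with an adjusted p of 0.0614, which missed the threshold. It passed with no filter, with DESeq2 and with only these groups in the fit, at adjusted p of 0.0041 to 0.0368.

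Clec4a2 (DCIR, ENSMUSG00000030148, chromosome 6, 123106428 to 123143999, plus strand) is the inhibitory receptor named for dendritic cells. It was at 7.47, 5.43 and 4.44 CPM in mexAM, 85.4, 61.2 and 83.3 CPM in BALF, 7.83, 8.73 and 11.9 CPM in PLF, and 259, 244 and 246 CPM in BMDM. No groups overlapped. The log2 fold change of mexAM was -3.77 ± 0.25 against BALF and -5.44 ± 0.25 against BMDM (adjusted p = 1.91e-08 and 2.91e-11). Against PLF it was -0.76 ± 0.30 (adjusted p = 0.0394), and with mouse as a replicate block -0.76 (adjusted p = 0.0540). That call was also lost with no filter, with DESeq2, with only these groups in the fit, and without mexAM or PLF of mouse 2 or of mouse 4, at adjusted p of 0.0561 to 0.195. Of the 65-base words in the last 500 bases of its transcripts, 5.87% also occur in Clec4a4 or Clec4b1, so its counts may include reads from these relatives.

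The neighbours Clec4a3 and Clec4a1, relatives of DCIR, shared the BMDM maximum but differed in the airspaces. Clec4a3 (ENSMUSG00000043832, 122952515 to 122969875, plus strand) was at 2.30, 2.96 and 4.84 CPM in mexAM, 129.8, 167 and 98.3 CPM in BALF, 8.49, 12.7 and 16.6 CPM in PLF, and 201, 158 and 147 CPM in BMDM. BALF and BMDM overlapped (log2 fold change -0.33 ± 0.24, 95% interval -0.87 to 0.22, adjusted p = 0.304), while mexAM and PLF lay below both. It fell 37.7-fold in mexAM against BALF (-5.24 ± 0.33, adjusted p = 1.01e-08). Clec4a1 (ENSMUSG00000049037, 122921848 to 122934619, plus strand) stood at 1.72, 0.987 and 0.404 CPM in mexAM, 1.39, 2.19 and 5.31 CPM in BALF, 5.22, 18.3 and 15.4 CPM in PLF, and 316, 235 and 268 CPM in BMDM. All 3 BMDM libraries lay above every library of the other groups, and the mexAM level rested on 6 counts in all. The log2 fold change of mexAM was -8.03 ± 0.46 against BMDM and -3.65 ± 0.57 against PLF (adjusted p = 3.53e-10 and 3.63e-05), and -1.53 ± 0.79 against BALF (adjusted p = 0.158). BALF against PLF gave -2.12 ± 0.54 and against BMDM -6.50 ± 0.43, and without BALF of mouse 4 these were -2.87 and -7.24. Without that library the value of mexAM against BALF was -0.79 (adjusted p = 0.588).

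Clec10a (MGL1, ENSMUSG00000000318), a galactose-binding lectin of macrophages and dendritic cells, had 3, 0 and 1 counts in mexAM and 0 counts in all 3 BALF libraries. It stood at 7.18, 18.3 and 18.4 CPM in PLF and at 107, 79.7 and 72.5 CPM in BMDM. With 3 counts over the BALF group taken as the floor, it was at least 16.9-fold lower in BALF than in PLF and at least 103-fold lower than in BMDM. In mexAM the log2 fold change was -4.36 ± 0.63 against PLF and -6.91 ± 0.53 against BMDM (adjusted p = 3.14e-05 and 4.87e-08), and without mexAM of mouse 1 the values were -5.65 and -8.19. No fold is given for mexAM against BALF. Of the words in its last 500 transcript bases, 9.44% are shared with its paralog Mgl2.

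Clec5a (MDL-1, ENSMUSG00000029915), which pairs with the adaptor DAP12, was the member with no called difference in any of the 9 comparisons. It stood at 81.0, 121 and 73.4 CPM in mexAM, 43.7, 35.0 and 245 CPM in BALF, 25.5, 100.1 and 103 CPM in PLF, and 76.2, 73.9 and 43.6 CPM in BMDM. All groups overlapped, and BALF of mouse 4 and PLF of mouse 1 were the extremes. The log2 fold change of mexAM against BALF was -0.26 with a 95% interval of -1.76 to 1.25 (adjusted p = 0.809), so differences up to a few-fold in either direction could not be seen. Without BALF of mouse 4 it was 1.18 (adjusted p = 0.0978). Pools against BALF gave 0.16 ± 0.70 (adjusted p = 0.905), and 1.58 (adjusted p = 0.0367) without that library.

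**Figure D3:**
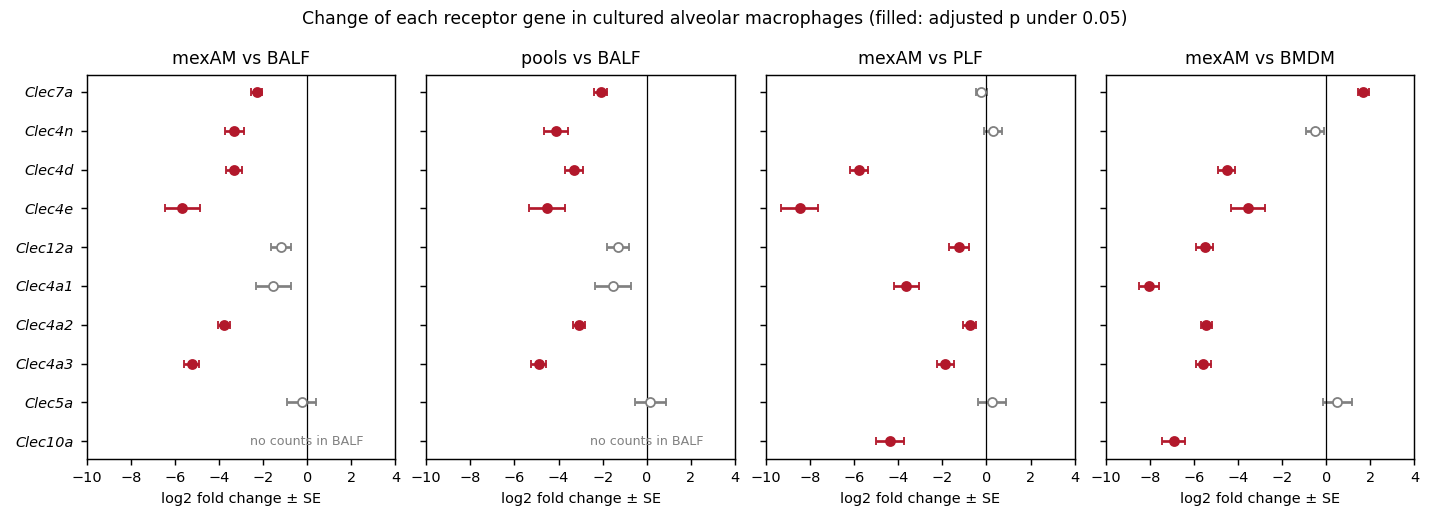
log2 fold change with its standard error for each receptor gene, for mexAM against BALF, pools against BALF, mexAM against PLF and mexAM against BMDM. Filled red points passed the test (adjusted p under 0.05), open grey points did not, and Clec10a has no counts in BALF. Clec4d and Clec4e lie below 0 in all 4 panels, and Clec7a lies above 0 in the BMDM panel alone.

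Counted over the comparisons, called members went mostly down in cultured alveolar macrophages. In mexAM against BALF 0 of the 10 members rose and 6 fell, with a median log2 change of -2.80, where 15.2% of the 10011 genes tested were called higher and 14.8% lower and their median was 0.01. Against PLF 0 rose and 7 fell (median -1.55), against backgrounds of 28.4% higher and 29.6% lower and a median over all genes of -0.02. Against BMDM 1 rose and 7 fell (median -4.97), against 21.5% higher, 23% lower and a median of -0.001. All 10 were tested in every comparison, and the medians were the same with Clec10a at its bound.

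The freshly isolated and bone marrow cells also differed. In BALF against PLF 4 members rose (Clec7a, Clec4n, Clec4a2 and Clec4a3) and 4 fell (Clec4d, Clec4e, Clec4a1 and Clec10a), against 19.5% of genes higher and 20.8% lower (median of the members 0.22, of all genes -0.01). In BALF against BMDM 3 rose (Clec7a, Clec4n and Clec4e) and 5 fell, against 18.2% higher and 19.3% lower (medians -0.76 and -0.03). In PLF against BMDM Clec7a (1.90 ± 0.26), Clec4d (1.27 ± 0.32) and Clec4e (4.93 ± 0.67) rose and 5 fell, against 18% higher and 18.4% lower (medians -1.66 and -0.01). These comparisons share libraries, so their counts are not independent of one another.

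The receptor levels of the lavage pools overlapped those of mexAM for all 10 genes. The share of all genes that overlapped was not counted, and only 74 of 10602 genes were called between these groups. The 4 pool libraries are 2 pools at 2 passages each. Summed CPM of the 10 genes ran from 1121 to 2763 in the 4 pool libraries and from 1088 to 1583 in mexAM. Clec7a stood at 895 and 1274 CPM in the later passages of pools 1 and 2 and at 942 and 2218 CPM in the earlier ones. With the passages of each pool summed, 0 members passed the test against mexAM in edgeR's quasi-likelihood test and 0 in DESeq2. Of the 10, 1 had an unadjusted p under 0.05 (Clec4a2, log2 fold change 0.69 ± 0.31), with 0.519% of 10602 genes called higher and 0.179% lower. An interval as wide as -0.98 to 3.27 for Clec4e leaves differences of several fold undetected at this depth.

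Against BALF 0 of the 10 members rose and 6 fell in the pools: Clec7a (-2.10 ± 0.30), Clec4n (-4.12 ± 0.54), Clec4d (-3.32 ± 0.41), Clec4e (-4.53 ± 0.81), Clec4a2 (-3.09 ± 0.26) and Clec4a3 (-4.91 ± 0.36). Without BALF of mouse 4 the value for Clec4e was -3.74. This comparison and that of mexAM against BALF share the BALF libraries. The median over the members was -2.59, with 13.6% of genes called higher and 12.4% lower. Neutrophil markers summed to 279 to 487 CPM in the pools, 292 to 794 CPM in mexAM and 79.8 to 99.5 CPM in BALF. The mexAM sum was mostly S100a8 (280 CPM on average, 51.9 in BALF) and Cxcr2 (246 and 10.2), while S100a9 was lower (9.44 and 21.3). Of the 5 tested, 2 rose and 0 fell in mexAM against BALF (median -1.21), beside 15.2% of all genes higher and 14.8% lower. In pools against BALF 1 rose and 0 fell (median -0.41). The part of these markers in the receptor levels was not tested.

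Levels at the later passage were also set against the earlier one within each pool. Clec4n stood at 70.2 and 95.8 CPM at the later passage of pools 1 and 2, against 159 and 336 CPM at the earlier one, and both pools moved the same way. The edgeR fit over the 16 libraries had no term for pool, so its test did not pair the passages of a pool. It gave Clec4n a log2 change of -1.57 ± 0.55, with an unadjusted p of 0.0117 and an adjusted p of 0.445. Without the earlier passage of pool 2 the change was -0.96. No member passed this quasi-likelihood test, and 1 of the 10 had an unadjusted p under 0.05. Of the 10527 genes tested, 0.0095% were called higher and 0% lower. With pool as a replicate block 1 gene was called. Clec4n made up 6.23% of the members' sum at the later passage and 12.3% at the earlier one. Clec7a, by its within-pool values, was lower at the later passage by 0.07 in pool 1 and by 0.80 in pool 2 on the log2 scale.

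**Figure D4:**
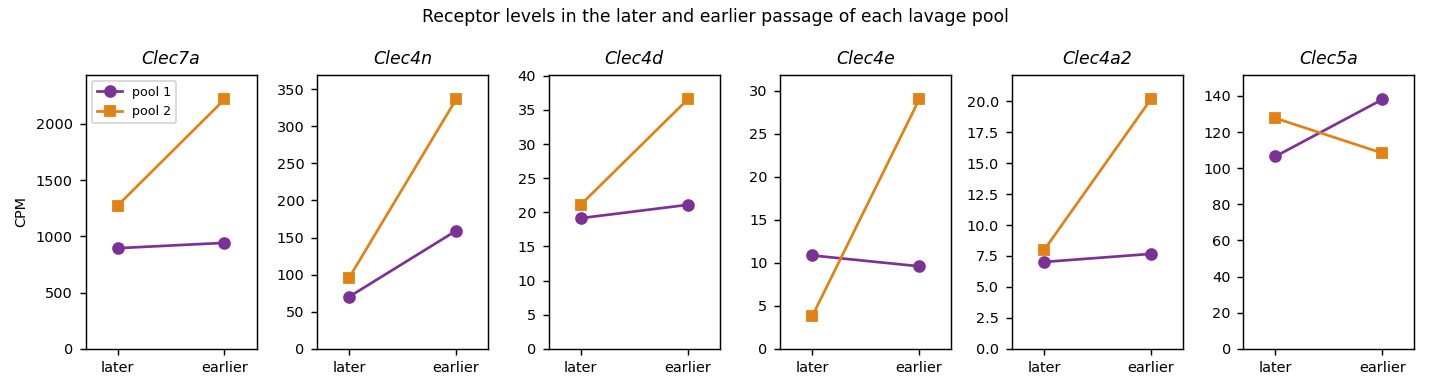
CPM of 6 receptor genes at the later (left) and earlier (right) passage of each lavage pool, joined by pool, with pool 1 in purple circles and pool 2 in orange squares. Clec4n is lower at the later passage in both pools, and Clec4e and Clec5a move in opposite directions in the 2 pools.

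The 3' ends of the 8 members other than Clec4a2 and Clec10a shared no 65-base word with another gene. The genes most alike in level across the 16 libraries, by Pearson correlation of log2 CPM over 9031 genes, were Pak1ip1 (r = 0.967) for Clec7a, Slc48a1 (0.908) for Clec4n, Timp2 (0.980) for Clec4d, Hivep3 (0.966) for Clec4e and Stab1 (0.980) for Clec4a1. For Clec4a2 it was Efhd2 (0.947), for Clec4a3 Rbm47 (0.955), for Clec5a Dock5 (0.814) and for Clec10a Ifit2 (0.980). The points are libraries of 4 kinds of cells and of the pool cultures, scaled together, so these values describe the ordering of cell types and no more.

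Downstream of the receptors, the adaptors and kinases were read in all 4 cell types. Syk stood at 110.4 ± 15.8 CPM in mexAM, 131 ± 46.5 in BALF, 129 ± 7.45 in PLF and 121 ± 12.8 in BMDM, and passed no test among them. The adaptor Fcer1g stood at 833 ± 53.6 CPM in mexAM, 1039.8 ± 55.7 in BALF, 465 ± 129 in PLF and 1472 ± 209 in BMDM, and Tyrobp, which encodes DAP12, at 1788 ± 264, 1144 ± 202, 607 ± 52.5 and 1010.2 ± 104 CPM in the same order. Card9 was read at 3.88 ± 2.50 CPM in mexAM and 1.12 ± 0.252 CPM in BALF and was not tested, being too low. Of 23 tested genes of the signalling list, 1 rose and 7 fell in mexAM against BALF, where 15.2% of all genes were called higher and 14.8% lower (median -0.29, against 0.01 over all genes). Among those that fell were Malt1 (-2.30 ± 0.34), the protease of the CARD9 complex, its partner Bcl10 (-1.39 ± 0.22) and Nfkb1 (-1.42 ± 0.32), and the gene that rose was Tyrobp (0.62 ± 0.19). In mexAM against PLF 3 rose and 12 fell (median -0.62), beside 28.4% of all genes higher and 29.6% lower. Against BMDM 2 rose and 8 fell (median -0.36), beside 21.5% higher and 23% lower.

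**Figure D5:**
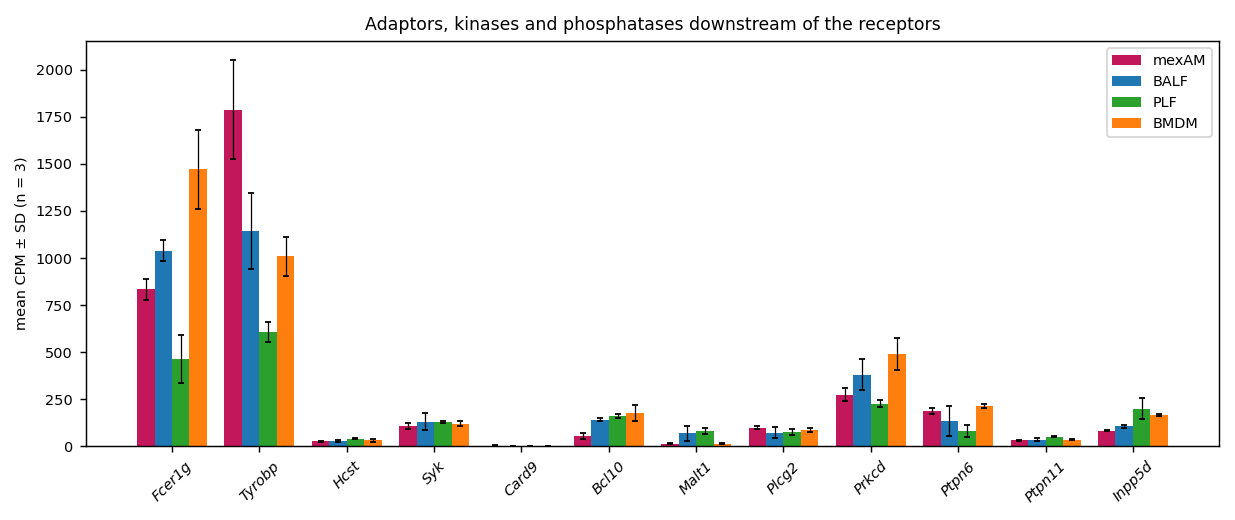
Mean CPM with SD (n = 3 mice) of 12 adaptor, kinase and phosphatase genes, in mexAM, BALF, PLF and BMDM. Tyrobp is highest in mexAM and Fcer1g highest in BMDM, the Syk bars overlap within their SDs, and Bcl10 and Malt1 are lower in mexAM than in BALF and PLF.

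Of 4 phosphatase genes, Ptpn6 (which encodes SHP-1) stood at 189 ± 17.7 CPM in mexAM, 136 ± 80.6 in BALF, 82.3 ± 32.0 in PLF and 214 ± 12.1 in BMDM. In mexAM against PLF it rose (1.18 ± 0.34), while Inpp5d (-1.27 ± 0.19) and Ptpn11 (-0.76 ± 0.21) fell, beside 28.4% of all genes higher and 29.6% lower. Against BALF 1 of the 4 rose (Inppl1, 1.04 ± 0.26) and 0 fell (median 0.13), beside 15.2% higher and 14.8% lower. Against BMDM 0 rose and 2 fell (Inppl1, -1.88 ± 0.22, and Inpp5d, -0.98 ± 0.19), beside 21.5% higher and 23% lower. Of 18 tested output genes, among them cytokines and their feedback genes, 1 rose and 6 fell in mexAM against BALF (median -1.21 as fitted and -0.95 with genes at 0 put at their bound), beside 15.2% of all genes higher, 14.8% lower and a median of 0.01. Those that fell included Tnf (-1.83 ± 0.40) and Cxcl2 (-1.99 ± 0.47). In PLF against BMDM 13 of the 18 rose and 2 fell (median 2.44), where 18% of all genes were called higher and 18.4% lower with a median of -0.01. Il6 had 0 counts in mexAM, averaged 0.891 CPM in BALF and 0.148 CPM in BMDM, and stood at 88.9 ± 67.7 CPM in PLF.

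Of 18 tested genes among 46 other lectin receptor genes, 4 rose and 3 fell in mexAM against BALF (median 0), counts near the background of 15.2% higher and 14.8% lower. Cd93, which encodes a complement C1q-related receptor, rose by 3.77 ± 0.25 to 517 ± 33.3 CPM in mexAM, against 37.0 ± 8.11 CPM in BALF. In the pool libraries Cd93 ran from 49.1 to 424 CPM, and in BMDM it stood at 961 ± 111 CPM. Klra2 (-3.28 ± 0.37), Clec1b (-2.70 ± 0.35, a platelet receptor gene also known from myeloid cells) and Clec4b1 (-2.34 ± 0.52) fell, at 10.9 ± 8.72, 4.81 ± 1.43 and 11.2 ± 8.88 CPM in mexAM, against 101 ± 21.5, 31.3 ± 9.17 and 53.9 ± 16.9 CPM in BALF. Mrc1, the mannose receptor gene, was at 1514 ± 174 CPM in mexAM, 1008 ± 45.4 in BALF, 34.8 ± 7.54 in PLF and 679 ± 196 in BMDM. Mgl2, the paralog of Clec10a, had 0 counts in all mexAM and BALF libraries.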

How the data were processed

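The authors deposited raw counts, 1 file of gene counts per library, per the labels from QuantSeq 3' FWD libraries with a UMI module, 150 ng of RNA and 65 bp single reads (GRCm38, mm10, per the submitters' processing notes). Neither aligner, counter, strand setting nor UMI collapsing was stated (not given in the sources used here). Therefore reads of a gene and of an antisense partner cannot be told apart. Counts in genes ran from 827791 to 2884679 per library, and 5 lines naming no gene were left out. GENCODE M21 named 47224 of the 47643 identifiers.

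Genes were filtered by filterByExpr, scaled by TMM and fitted by edgeR 4.0.16 (robust quasi-likelihood F test, R 4.3.3), with Benjamini-Hochberg adjustment over all genes and a threshold of 0.05. The comparisons among mexAM, BALF, PLF and BMDM came from 1 fit of 12 libraries. Pools against mexAM or BALF used 14 columns with the passages of a pool summed. Passages were compared over 16 libraries with no term for pool, so that the spread there comes mostly from the mouse groups. The SE of a log2 change is its absolute value divided by the square root of the F statistic. Intervals are this SE times the t value on the residual degrees of freedom and so include the spread between libraries. An interval can reach past 0 where the unadjusted p is under 0.05. The floor of 3 counts covers counting error only. CPM use TMM-scaled totals over 16 libraries. DESeq2 1.42.0, other scalings, no filter, mouse or pool as a replicate block, fits of 2 groups and omitted libraries were alternatives. Only the fit of 12 libraries was tested on simulated data, for mexAM against BALF and with the same dispersion for every gene. The pool and passage fits were not.

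The members, gene lists and tests were chosen with earlier results of these data known. Named were all 10 members, up to 4 called genes per pathway list, direction and comparison (10 CPM or more where higher), and the genes most like each member, of which the text gives a selection. Some genes that this rule names are not reported here. The eosinophil list (3 genes) summed to at most 3.97 CPM outside BMDM and to 15.0 to 74.8 CPM in BMDM. The pan-macrophage list (6 genes) summed to 9646 to 22505 CPM in every library, most of it Lyz2 (15465 CPM on average in mexAM, 14516 in BMDM). Its other genes were not even. Of the 6, 1 rose and 3 fell in mexAM against BMDM, beside 21.5% of all genes higher and 23% lower. Csf1r had 28.6 CPM in mexAM against 1475 in BMDM, Fcgr1 0.954 against 112 and Mertk 646 against 194.

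Mouse numbers pair the libraries, since the labels give the same animals across cell types. Same-mouse correlations of deviations from group means ran from -0.118 to 0.22 (median -0.0207), with 2 of 18 above 0.1. Whether the 3 libraries of a group came from separate cultures is given by mouse only. The chosen fits had no mouse term, so p-values rest on the spread between libraries within groups, shared over all groups fitted. That spread does not separate mice from cultures.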

Additional observations from a re-analysis of the deposited data

Results flagged for a closer look

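The difference of the later minus the earlier passage went in opposite directions in the 2 lavage pools for 3 of the 10 receptor genes, with 1 library per pool and passage. For Clec4e the later passage minus the earlier gave 0.16 in pool 1 and -2.58 in pool 2 on the log2 scale, a difference between pools of -2.74. For Clec12a the values were 0.76 in pool 1 and -0.08 in pool 2, a difference of -0.84. For Clec5a they were -0.37 in pool 1 and 0.23 in pool 2, a difference of 0.6. Clec12a rested on 9 counts at the later and 3 at the earlier passage of pool 1, and on 24 and 7 in pool 2. Clec4e rested on 17 and 10 counts in pool 1 and on 11 and 23 in pool 2. The share of all genes with opposite directions in the 2 pools was not counted. None of these differences was tested.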

How the results depend on the processing

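Of 90 member results, 51 were called, and 930 of 986 alternative values kept direction and side of the threshold. None of the called results reversed, 3 lost their call in some alternative, and 4 uncalled ones gained one: Clec12a against BALF in mexAM (-1.201 with DESeq2) and in pools, Clec4n in PLF against BMDM, and Clec5a in pools against BALF (1.583 without BALF of mouse 4). Members called in mexAM against PLF were 4 in place of 7 when only those groups were fitted, where Clec4a1 did not pass the filter on low counts. Genes called in pools against mexAM were 74 in the chosen fit, 380 with no filter, 160 with DESeq2 and 6 to 99 without 1 library. In pools against BALF they were 2757 and 1604 to 2427 without 1 library. In later against earlier passage they were 1, 80 with no filter, 38 with DESeq2 and 0 to 4 without 1 library. The cause was not tested.

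With mouse as a replicate block, mexAM against BALF gave 2833 called genes in place of 3007. The block took away the call of Clec4a2 in mexAM against PLF, added that of Clec4n in PLF against BMDM and reversed uncalled Clec12a in BALF against PLF to 0.017. It changed no other call. Scaling by library totals alone moved the median of all genes by over 0.1 in BALF comparisons, to 0.22 in mexAM against BALF, 0.20 in pools against BALF, -0.32 in BALF against BMDM and -0.27 in BALF against PLF. The share of calls that were higher then became 67.4% against 50.6%, 67.7% against 52.4%, 30.5% against 48.5% and 33.1% against 48.4%.

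Uncalled values near 0 turned in sign. In pools against mexAM Clec4a1 gave -0.016 with RLE scaling, -0.001 with library totals and -0.012 with DESeq2, and Clec4d gave 0.003 with no filter. Leaving out 1 library, Clec5a ran from -0.665 to 1.184 in mexAM against BALF, -0.167 to 0.518 in mexAM against PLF, -0.943 to 0.905 in BALF against PLF, -0.678 to 1.171 in BALF against BMDM, -0.007 to 0.68 in PLF against BMDM, -0.262 to 1.583 in pools against BALF and -0.26 to 0.125 in later against earlier passage. Clec7a ran from -0.37 to 0.076 in mexAM against PLF, -0.155 to 0.485 in pools against mexAM and -1.024 to 0.175 between passages. Clec12a ran from -0.542 to 0.32 in BALF against PLF, -0.613 to 0.197 in pools against mexAM and -0.271 to 1.285 between passages. Clec4n ran from -0.149 to 0.686 in mexAM against PLF. In pools against mexAM Clec4a1 ran from -0.764 to 0.672, Clec4d from -0.435 to 0.763 and Clec10a from -0.257 to 1.585. Clec4a3 ran from -0.097 to 0.845 between passages. Of 60 levels, 3 moved by over 1 SD on plain totals, and 25 of 396 list counts moved by over 1.5 times. Members with under 10 counts in a group are limited by depth.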
